A study of Sus scrofa domesticus with 4 samples.

Results

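NMB, the gene of the neuromedin B precursor, was followed in slices of pig endometrium, untreated or exposed to orexin A (OXA). It was found as the array probes whose RefSeq transcript accession belongs to pig NMB, and it is 1 gene of the 3029 genes that could be named on the array. The array carries 1 NMB probe (A_72_P441888) among 43603 probes, as 1 spot per array. NMB was chosen by its measured OXA over control ratios on the 4 arrays, which were among the lowest of the series, so those ratios are given as a description and are not tested.

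The tissue was cut from the middle of the uterine horns of 4 gilts (Large White x Polish Landrace, 7 to 8 months old, 120 to 130 kg) on days 15 to 16 of gestation. Slices of endometrium were kept in culture medium for 2 h and then for a further 24 h, either untreated (control) or with OXA at 10 nM, a dose that the design text of the series gives as 10 µM. Each of 4 arrays received 1 OXA RNA and 1 control RNA in the dyes Cy3 and Cy5, and n = 4 arrays throughout. Cultures were run in duplicate in 4 experiments per the labels, and the sources used here do not say if an array pairs RNA of a single gilt. Spread between arrays therefore joins animal, tissue piece and array handling. Slices hold all cell types of the endometrium, so fewer cells of a type and less RNA per cell cannot be told apart.

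Neuromedin B is a short, C-terminally amidated peptide of the bombesin family, cut from a longer precursor in the secretory pathway. It acts through the receptor NMBR, which couples to Gq proteins, phospholipase C and release of calcium from stores, and it is known for contracting smooth muscle and for effects on feeding and hormone secretion. OXA is a hypothalamic peptide of feeding and arousal whose receptors HCRTR1 and HCRTR2 also use Gq.

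Each sample's own label gives the dye of its RNAs: OXA RNA was Cy5 on arrays 1 and 3, and it was Cy3 on arrays 2 and 4. These labels are used here, while the labelling protocol puts OXA in Cy5 throughout. The slide of array 1 differed from that of arrays 2 to 4, and its scan was 71 days later. In Cy3 31.7% to 56.7% of probes were well above background, with array 1 lowest, and in Cy5 62.3% to 74.5%, and 0 spots were saturated. Over the 26930 probes tested, OXA over control ratios of array pairs correlated from -0.29 to 0.42. Endometrial cell types were present by their markers: all 7 epithelium genes with a probe and 4 of 5 stromal fibroblast genes were above background.

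The NMB spot was bright in every reading. On array 1 its median intensity was 123360 in control RNA (Cy3) and 126591 in OXA RNA (Cy5). On array 2 it was 41150 in control RNA (Cy5) and 5063 in OXA RNA (Cy3). On array 3 it was 32390 in control RNA (Cy3) and 128762 in OXA RNA (Cy5). These unscaled values follow the dye as much as the treatment, since Cy5 gave the brighter signal on every array. On array 4 it was 86295 in control RNA (Cy5) and 16219 in OXA RNA (Cy3). The local background was at most 0.444% of the spot's intensity in any reading, and all 8 readings were well above background. The local background in Cy5 carried an outlier mark on arrays 1, 3 and 4, and the NMB spot itself carried none.

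**Figure D1:**
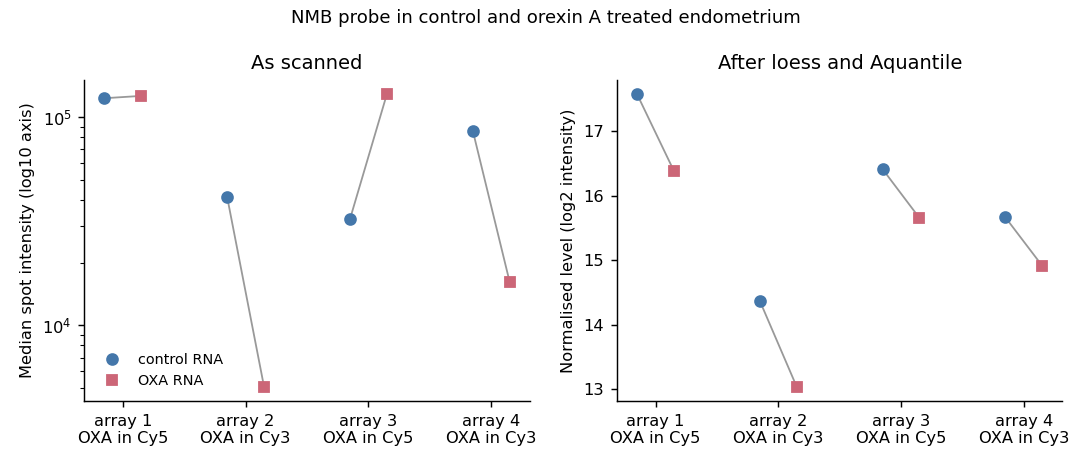
Left, median spot intensity of the NMB probe (log10 axis) and right, its level after loess and Aquantile scaling (log2 intensity), for the control RNA (circles) and the OXA RNA (squares) of each of 4 arrays. As scanned, the Cy5 member of each pair is the higher; after scaling, the OXA RNA is the lower member on 4 of 4 arrays, and array 2 is the lowest in both RNAs.

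The place of NMB among all tested probes of the same RNA needs no scaling between dyes. In control RNA 37 of the 26930 tested probes were brighter than NMB on array 1, and 453 were in OXA RNA. On array 2 the counts were 1294 and 2771, on array 3 they were 418 and 602, and on array 4 they were 636 and 970. NMB thus stood lower in the OXA RNA on 4 of 4 arrays, both where OXA was in Cy5 and where it was in Cy3. Of all tested probes 6.44% stood lower in this way on 4 of 4 arrays. Brightness depends on the probe as well as on the RNA, so these places do not measure NMB mRNA against that of other genes.

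After normexp background correction and loess within each array, the log2 ratio of OXA over control was -1.19 on array 1, -1.33 on array 2, -0.76 on array 3 and -0.75 on array 4. Arrays 1 and 2 lay close together and below arrays 3 and 4, and each of these pairs holds 1 array of either dye orientation. The mean was -1.01 ± 0.30 (SD, n = 4; SE 0.14 in the limma fit with a dye coefficient), a fold of 0.498. All 4 ratios were below 0, as were those of 4.26% of tested probes. Of the tested probes 8 had a lower estimate, and 1 of the other 2406 named genes above background did. In Agilent's own processed signals the ratios were -1.47, -1.31, -0.54 and -0.91 on arrays 1 to 4, with a mean of -1.06 ± 0.42 (SD, n = 4). For NMB the authors' deposited value table gives these same ratios. Processed signals of NMB ran from 16691 to 88699 in control RNA and from 6719 to 32442 in OXA RNA, ranges that overlap because arrays differed more than the RNAs of one array.

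Probes of similar brightness were read in the same way. Without normalization NMB was at 0.04, -2.96, 2.03 and -2.47 on arrays 1 to 4, and the median of the 200 tested probes nearest to it in brightness was 1.2, -1.96, 2.46 and -1.55. NMB and its neighbours shared the swing with the dye. Set against those medians, NMB was lower by -1.16, -1.01, -0.43 and -0.92, a mean difference of -0.88 ± 0.32 (SD, n = 4). With loess the mean difference from the same neighbours was -1.01 ± 0.33 (SD, n = 4). On single arrays 2 to 7 of the 200 neighbours lay below NMB with loess, and 3 to 11 without normalization. Array 3 was the array on which NMB stood closest to its neighbours.

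**Figure D2:**
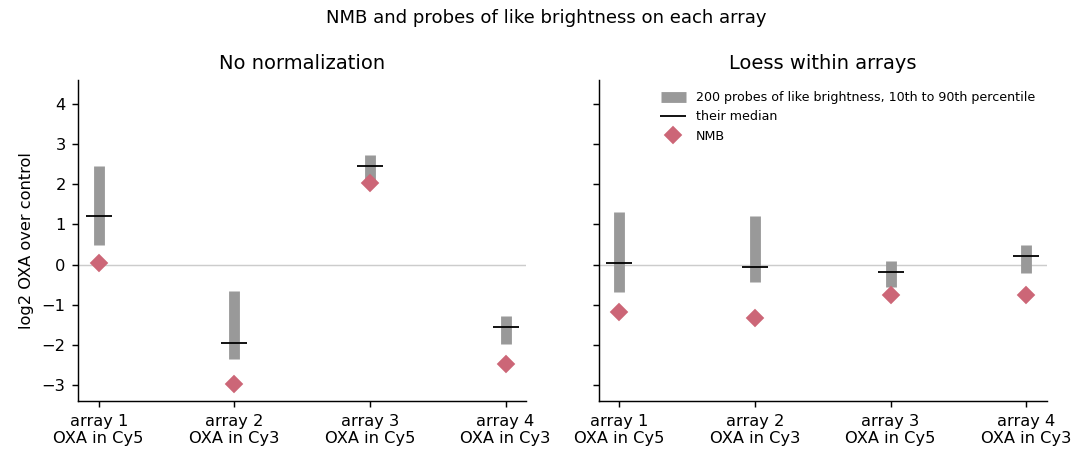
log2 OXA over control of NMB (diamonds) and of the 200 tested probes nearest to it in brightness (bars, 10th to 90th percentile; dashes, median) on each of 4 arrays, without normalization (left) and with loess (right). Without normalization all values move with the dye of the OXA RNA, and NMB lies below the median of its neighbours on 4 of 4 arrays in both panels.

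Among the 50 named genes nearest in brightness, 0 had a lower estimate than NMB, and their median was -0.02. The lowest of them was CXCL8, a neutrophil chemokine, at -0.75 (SE 0.37), and its array 1 to 4 ratios were -1.40, -0.13, 0.09 and -1.55. CLDN3, a tight junction protein, was -0.45 (SE 0.31), and KLF6, a zinc finger transcription factor, was -0.33 (SE 0.19; 0.02 with median centring). The highest were KLF17, another zinc finger factor, at 0.76 (SE 0.33), PRRT1, a proline-rich membrane protein, at 0.33 (SE 0.25), and HMGB1, a chromatin protein, at 0.33 (SE 0.25). These 6 estimates moved when single arrays were left out. Without array 1 CXCL8 was -0.38, KLF17 0.37, PRRT1 0.013 and HMGB1 0.053, and without array 2 CLDN3 was -0.084 and KLF6 -0.14.

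The dye coefficient of the fit takes up a difference between Cy5 and Cy3 that does not follow the treatment. For NMB it was 0.03 (SE 0.14), a description with no test, since it comes from the same 4 ratios by which NMB was chosen and since loess removes dye differences shared by probes of like brightness. It passed an adjusted p of 0.05 for 0% of all probes tested. With median centring in place of loess, which leaves the slope of the ratio with brightness in place, the dye coefficient of NMB was 1.56. Under that scaling the OXA estimate of NMB was -0.53 (SE 0.33), while the median over all probes was 0.14 in place of 0.02. NMB was then -0.88 from the median of its brightness neighbours, which stood at 0.35. Had OXA been in Cy5 on every array, as the labelling protocol says, the array ratios would differ in sign and the estimate would be 0.03 (SE 0.49).

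**Figure D3:**
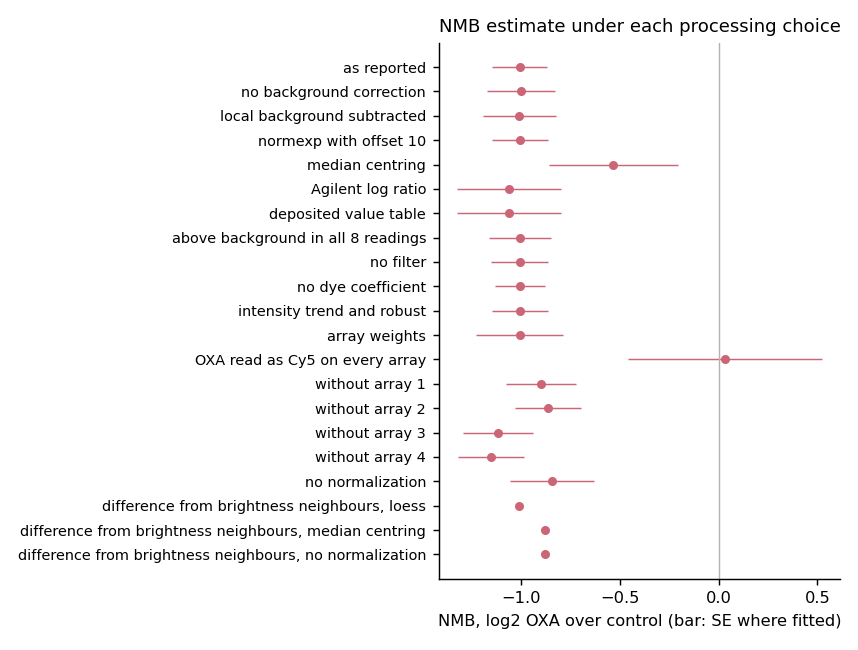
Estimate of log2 OXA over control for NMB under each processing choice, with bars of 1 SE where a model was fitted. Estimates lie from -1.15 to -0.84 except with median centring (-0.53) and with OXA read as Cy5 on every array (0.03).

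The level of NMB, apart from treatment, differed widely between arrays. After loess and Aquantile scaling, the mean of both RNAs was 16.97, 13.70, 16.03 and 15.29 (log2 intensity) on arrays 1 to 4. Array 1 was highest and array 2 lowest, a range of 3.27 on the log2 scale or 9.67-fold. The control RNA was at 17.57, 14.36, 16.41 and 15.66, and the OXA RNA at 16.38, 13.04, 15.65 and 14.91. The group means were 16.00 ± 1.34 in control RNA and 15.00 ± 1.44 (SD, n = 4 each) in OXA RNA, so the groups overlapped, and OXA RNA of array 1 was above control RNA of arrays 2 and 4. From high to low the order was array 1, 3, 4 and 2 in both RNAs, and with 1 reading of each RNA the steps between neighbours in that order have no error of their own. On the slide of arrays 2 to 4 alone the range was 2.33, or 5.03-fold.

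The SD of this mean level over arrays, 1.38, exceeded that of all but 17 of the other 26929 tested probes. Its median was 0.25 over the 200 nearest probes in brightness, of which 1 varied more. With no background correction and arrays centred on their medians 153 probes varied more, and with no scaling between arrays 977 did. Of named genes 5 had a larger SD, and they are named here after their values were seen. POMGNT2, a glycosyltransferase, and NUDT2, a nucleotide hydrolase, owed it to 1 array each, with levels of 7.31 on array 3 and 6.01 on array 1. LOC396781 ran from 10.73 to 14.85. OASL and RSAD2, both induced by interferon, were highest on array 2 (14.24 and 15.02), the array on which NMB was lowest.

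**Figure D4:**
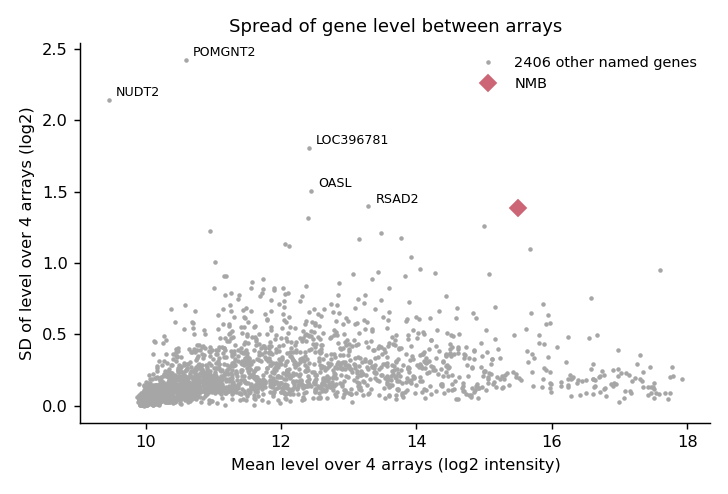
SD over 4 arrays of the mean level of both RNAs (log2) against mean level (log2 intensity), for NMB (diamond) and 2406 other named genes (points), with the 5 genes of larger SD named. NMB, at an SD of 1.38, stands above every named gene of similar or greater brightness.

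Named genes whose level followed that of NMB most closely over the 4 arrays, by distance between levels centred on each gene's mean, were also picked after the data were seen. The nearest was SLPI, a secreted protease inhibitor of mucosal epithelium, at a distance of 1.23 against a median of 2.43 over all named genes. Its level was 18.13, 16.21, 18.13 and 18.07 on arrays 1 to 4, so array 2 was lowest as for NMB. The scaled level of SLPI was identical on arrays 1 and 3 and near that on array 4. Aquantile gives equal ranks the same level, so the identity is one of rank and not of measured intensity. NMB stood at 16.97, 16.03 and 15.29 on arrays 1, 3 and 4. The likeness of SLPI to NMB thus rests on array 2. AKR1CL1, an aldo-keto reductase, BTG2, an antiproliferative factor, TSPAN1, a tetraspanin, and DNAJC12, a co-chaperone, were also near, at distances of 1.27 to 1.36. These 5 genes were lowest on array 2, but their ranges were 1.45 to 2.01 against 3.27 for NMB. Their OXA over control estimates were -0.60 to -0.05.

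The receptor side of the pathway gave little signal. NMBR, the neuromedin B receptor, was not well above background in any of 8 readings, with 162 to 206 in Cy3 and 82 to 88 in Cy5, where the medians of negative control spots were 154 to 251 and 68 to 74. GRP, GRPR and BRS3, the other ligand and receptors of the bombesin family, had no probe that could be named, and their levels are not analysed here. The probes of both orexin receptors were above background in 0 to 2 of 8 readings. HCRT, the orexin precursor, was above background in 7 of 8 readings and stood at 0.01 (SE 0.06; -0.20 with no normalization, where the median over all probes was -0.16), with -0.04 to 0.09 over arrays.

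Genes that make, release, split or answer to small peptides were examined in 4 further lists. They held 51 genes above background, HCRT among them, of which 0 passed an adjusted p of 0.05 in limma's test and 0 had an unadjusted p under 0.05, where 79 of the 2406 named genes other than NMB and 500 of all tested probes did. Over all probes 0% passed the adjusted test. A looser rule, an unadjusted p under 0.05 and a change of 1.2-fold or more, took 0.672% of all probes as lower and 0.624% as higher, 1.3% in all, and 0 of the 51 genes. Their median was -0.06 and 35 of them (68.6%) were below 0, where the 2406 named genes other than NMB had a median of -0.02 and 57.4% below 0. The looser count among the 51 genes was 3 to 9 under median centring, no or plain background correction, Agilent's log ratio, the deposited table or no normalization. Over all probes it rose as well in these settings, from 349 of 26930 to 1407 with no background correction and 4297 with median centring.

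Other precursors of neuropeptides and peptide hormones had a median of -0.10, with 16 of 20 genes below 0. The array medians were -0.36, -0.06, 0.00 and 0.00, so array 1 lay furthest from 0. Without array 1 the list median was -0.01, and 15 of 20 genes were still below 0. The list median was -0.29 in Agilent's log ratio (15 of 20 below 0) and -0.04 with median centring (12 of 20 below 0). All 11 genes above background in all 8 readings were below 0, with a median of -0.34. Over the 13594 probes past the same filter the median was -0.002, and their share below 0 is not given here. The 11 genes were not read as a set without array 1, where NPW and PTHLH, both among them, were lowest. NPW, the neuropeptide W precursor, was -0.53 (SE 0.31), and its other probe gave 0.04. Arrays 1 and 2 were at -1.48 and -0.73 and arrays 3 and 4 at 0.02 and 0.08. PTHLH, parathyroid hormone-like hormone, was -0.51 (SE 0.30), with -1.80 on array 1 and -0.14 to -0.01 elsewhere. ADM, the vasodilator adrenomedullin, was -0.48 (SE 0.26), and its ratio was above 0 on array 1 (0.21) and lowest on array 4 (-1.01). PDYN, the dynorphin precursor, was -0.24 (SE 0.11; 0.01 with median centring), with -0.65 on array 1 and -0.13 to -0.07 elsewhere. Each of these 4 genes had an adjusted p of 0.763 in limma's test. Without array 1 NPW was -0.15, PTHLH -0.090 and PDYN -0.11, and without array 3 ADM was -0.20.

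Prohormone processing and granule genes, which cut and store such precursors, had 4 genes above background from -0.09 to 0.03 and a median of -0.06. CPE, a carboxypeptidase that trims precursors, was -0.06 (SE 0.09; 0.14 with median centring), and its 7 probes ran from -0.16 to 0.05. SCG5, a chaperone of a prohormone convertase, was -0.09 (SE 0.07), RAB27A, a GTPase of granule docking, -0.06 (SE 0.07), and CHGB, a granule core protein, 0.03 (SE 0.06; -0.02 with median centring). In Agilent's log ratio the SEs of SCG5, RAB27A and CHGB were 0.25 to 0.28. Of the 30 listed genes 9 had a probe.

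Peptidases that split small peptides, not all of them at the cell surface, had 8 genes and a median of 0.03. DPP4, a dipeptidyl peptidase, was 0.37 (SE 0.19), with 1.10 on array 1. NLN, neurolysin, was 0.25 (SE 0.17; -0.09 by its other probe), ENPEP, an aminopeptidase, 0.09 (SE 0.07; -0.26 with no normalization), and PREP, a prolyl peptidase, -0.15 (SE 0.14; 0.04 by its other probe and 0.20 with median centring). Without array 1 DPP4 was 0.12 and ENPEP 0.021, and without array 2 NLN was 0.030. In Agilent's log ratio ENPEP was 0.71 (SE 0.26).

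The Gq and calcium list, through which both NMBR and the orexin receptors act, had a median of -0.03, with 12 of 19 genes below 0 (a median of 0.20 with median centring, where all probes stood at 0.14). RGS5 and RGS4, which shorten G protein signals, were 0.19 (SE 0.09) and -0.24 (SE 0.15; 0.08 with median centring). GNA11, a Gq family alpha subunit, was -0.17 (SE 0.10; 0.11 with median centring), and DGKA, a diacylglycerol kinase, 0.21 (SE 0.14). Without array 1 RGS5 was 0.12, GNA11 -0.090 and DGKA 0.020, and without array 2 RGS4 was -0.069.

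**Figure D5:**
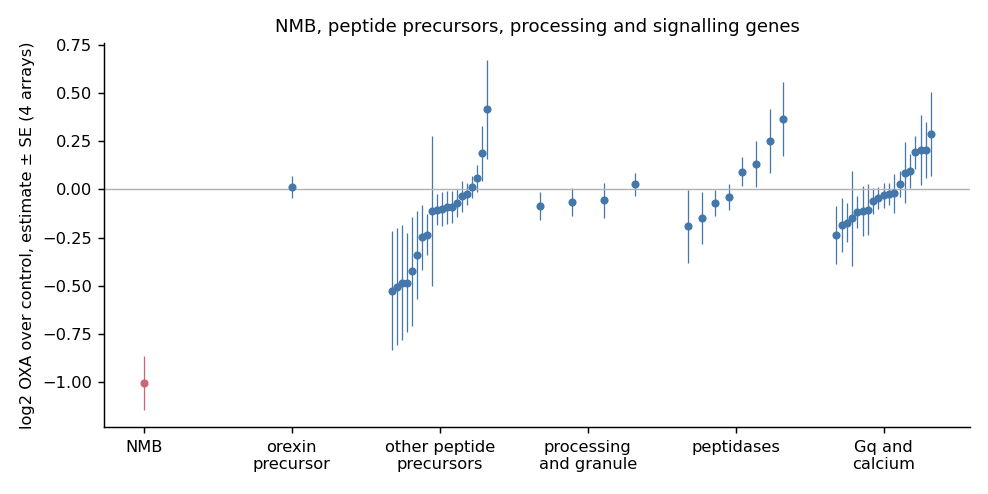
log2 OXA over control with loess (estimate ± SE from 4 arrays) for NMB, the orexin precursor HCRT and genes of 4 lists, ordered within each list by estimate. NMB lies at -1.01, and the other 51 genes lie between -0.53 and 0.42 with normexp background correction. That range is wider in other settings. With local background subtracted NPPC is at 1.03, PTHLH at -0.80 and NMB at -1.01. In Agilent's log ratio NPPC is at 1.505, PDYN at -0.98 and NMB at -1.06, while HCRT stays near 0 in both.

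By Euclidean distance over the 4 array ratios, the named gene most like NMB was MT1A, a metal-binding metallothionein, at a distance of 0.63 against a median of 2.05 over 2406 genes. Its ratios were -0.92, -0.78, -0.90 and -0.63 on arrays 1 to 4, and its other probe gave -0.82. GDF15, a stress-induced cytokine, followed at 1.00, with -1.12, -0.69, -0.49 and -0.02. CCL20, a chemokine of lymphocytes and dendritic cells, was at 1.03, with -1.01, -0.79, -0.35 and 0.00, and its estimate of -0.54 was 0.02 with median centring. In GDF15 and CCL20, as in NMB, arrays 1 and 2 were lower than arrays 3 and 4. IL6, an inflammatory cytokine, and PTMA, prothymosin alpha, were at 1.06 and 1.13, with estimates of -0.65 and -0.54. Other probes of IL6 and PTMA gave -0.26 and -0.27. The likeness rests on 4 values per gene, and the measure favours genes with low ratios on all arrays.

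On chromosome 7 of the reference assembly Sscrofa11.1, NMB lies between SEC11A and WDR73, for which no probe could be named. No coordinates are given, since the headers of the array files leave the genome build unnamed. The nearest genes with a probe above background on either side, INSIG2, a regulator of sterol synthesis, 8 genes away, and BLM, a DNA helicase, 6 genes away, were 0.08 (SE 0.08) and -0.02 (SE 0.06). INSIG2 was -0.03 and BLM 0.60 in Agilent's log ratio. SLC28A1, a nucleoside transporter 6 genes away, was above background in at most 2 of 8 readings. HDDC3, a hydrolase, was -0.13 (SE 0.10), and its other probe gave 0.03.

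Markers of endometrial cell types were read beside NMB. The 7 epithelium genes had list medians of -0.64, -0.35, -0.02 and 0.42 on arrays 1 to 4, lower on arrays 1 and 2 as for NMB, while on array 4 they were above 0 and NMB was at -0.75. EPCAM, CDH1 and KRT8 were all above background, 5 of 7 genes had estimates below 0, and the summed level ran from 16.23 to 17.51 (log2) in control RNA and from 16.39 to 16.89 in OXA RNA. The 4 stromal fibroblast genes LUM, DCN, COL1A2 and POSTN had medians of 1.45, -0.07, 0.10 and 0.15, so array 1 stood apart. Their summed level ran from 14.69 to 15.90 in control RNA and from 14.61 to 16.35 in OXA RNA. Without array 1, where both lists were furthest from 0, NMB was -0.90 (SE 0.18). Of the neuron and nerve fibre list 5 of 15 genes had a probe and 1, UCHL1, was above background, at -0.0038 (SE 0.11). Endothelium, smooth muscle, myeloid and lymphocyte lists had medians of -0.15 to -0.03 over arrays but moved between them. On arrays 1 to 4 the endothelium median was 0.65, -0.51, -0.06 and -0.41, the myeloid median 0.60, -0.53, 0.27 and -0.69, the smooth muscle median 0.01, -0.73, 0.18 and -0.11, and the lymphocyte median 0.09, -0.28, 0.18 and -0.13. The level of these lists also differed between arrays. The median level of epithelium genes was 13.07, 13.19, 12.85 and 12.39 (log2 intensity) on arrays 1 to 4. That of stromal fibroblast genes was 12.55, 11.49, 12.34 and 13.39, lowest on array 2 as for NMB. Endothelium genes ranged over 1.60, UCHL1 over 1.44, and smooth muscle, myeloid and lymphocyte genes over 0.78 to 0.96. The part of cell composition in the NMB ratio and in the NMB level was not tested.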

How the data were processed

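Gene expression was measured on 4 two-colour Agilent arrays. The deposited scanner files hold median spot and background intensity and processed intensity in each dye, written by Agilent Feature Extraction (version 10.7.3.1, per the file headers). A log10 ratio of Cy5 over Cy3 is deposited beside them. The authors' deposited value table holds log2 ratios. Set against the scanner ratios over 43420 probes, its slopes of 1.06, -1.00, 1.04 and -1.03 on arrays 1 to 4 gave the scale and an OXA over control direction under the labelled dyes. Its column medians were -0.17, 0.06, -0.06 and 0.09, and how it was centred stays unknown. Median intensities were corrected by normexp (offset 50), normalized by loess, and fitted in limma 3.58.1 (R 4.3.3) with OXA and dye coefficients, eBayes, and Benjamini-Hochberg adjustment over all probes kept. The fit had 2 residual degrees of freedom, 3.88 after moderation. Control spots and spots marked as feature outliers were left out, replicate spots averaged, and probes kept when well above background in at least 4 of 8 readings (26930 tested; 121 lost to outlier spots). Levels per RNA were scaled between arrays by Aquantile. The number of arrays limits the precision. Of 7125 probes with a RefSeq accession, 6700 matched the Sscrofa11.1 gene table. A gene stands for its kept probe of highest mean brightness.

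Genes were named by rule: NMB, the bombesin and orexin lists, 4 genes per further list by lowest p, the 6 nearest to NMB in array ratios, the 3 lowest and 3 highest of 50 brightness neighbours, and 2 genes with a probe on either side in the gene table. Not every gene so named is reported here. A looser rule took probes with a change of 1.2-fold or more and unadjusted p under 0.05. The gene, lists and rules were chosen with earlier results of these data known. Scripts were tested on simulated data. P-values measure the spread between these arrays, which may be partly technical.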

Additional observations from a re-analysis of the deposited data

Results flagged for a closer look

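Dixon's rule, which marks 1 value far from the other 3, marked no array in the ratios of NMB or in its levels in control and OXA RNA. NMB was chosen by these ratios, and with 4 values the rule finds only extreme gaps. The lack of a mark is therefore no evidence that the arrays agree. Of 35 sets of 4 values examined (those of NMB and the named genes), 6 held 1 array far from the other 3, where chance gives about 1 in 20, and the array was array 1 in all 6. PTHLH was -1.80 there and -0.14 to -0.01 on the others. PDYN was -0.65 against -0.13 to -0.07. HDDC3 was -0.49 against -0.02 to 0.00, RAB27A was -0.27 against 0.00 to 0.01, INSIG2 was 0.37 against -0.05 to 0.01, and BLM was -0.11 against 0.00 to 0.02. In HDDC3, RAB27A, INSIG2 and BLM the other 3 ratios lay close together near 0. A modest ratio on array 1 was then enough for a mark. The count of 6 was not tested against the rate of 1 in 20. Array 1 was on another slide, and the parts of the slide and of background handling in these marks were not tested.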

How the results depend on the processing

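The NMB estimate kept its sign in every alternative but 1: it was 0.033 with OXA read as Cy5 on every array. It was -0.53 with median centring, and leaving out each array gave -1.15 to -0.86. The NMB dye coefficient was 1.56 with median centring and 1.87 with no normalization, and -0.11 to 0.18 leaving out each array. Array 1 is alone on its slide, so leaving it out is the fit within the slide of the other arrays. The looser count of pathway genes, 0 as reported, was 4 with no background correction, 6 with local background subtracted, 3 with median centring, 5 with Agilent's log ratio and with the deposited table, 1 with OXA read as Cy5 on every array, 9 with no normalization, and 1 to 9 leaving out each array. Over all probes it was 349, and 1407, 1541, 4297, 1829, 1825, 679 and 1764 in those settings, 193 with array weights, 210 with background outlier spots left out, and 285 to 3120 leaving out each array (3120 without array 3, 2060 without array 4). With median centring the looser rule thus took 3 of 51 pathway genes beside 4297 of 26930 probes. With no normalization it took 9 of 51 beside 1764 of 26930. Probes past the adjusted p numbered 0 as reported, 3 with an intensity trend and robust fitting, and 12 with no normalization. Leaving out each array gave 0 to 6 such probes (6 without array 4). No normalization, the differences from brightness neighbours and the removal of background outlier spots were chosen after seeing the data. The last left NMB with array 2 alone and could not be fitted for it.

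Signs turned for these named genes, some of them, such as CXCL8, KLF17, IL6 and PTMA, far from 0 as reported. With no background correction CPE was 0.11 and BLM 0.046, and with local background subtracted 0.11 and 0.0087. With median centring GNA11 was 0.11, RGS4 0.081, PREP 0.20, PDYN 0.012, CPE 0.14, CHGB -0.016, CCL20 0.022 and KLF6 0.024. With Agilent's log ratio and with the deposited table HCRT was -0.014, CPE 0.044, INSIG2 -0.034 and BLM 0.60. With OXA read as Cy5 NLN was -0.023, ADM 0.13, CPE 0.0018, IL6 0.10, PTMA 0.36, CXCL8 0.092, KLF17 -0.15 and HMGB1 -0.078. With no normalization, where the median over all probes was -0.16 in place of 0.02, HCRT was -0.20, ENPEP -0.26, CHGB -0.32 and INSIG2 -0.095. Leaving out each array, HCRT ran from -0.0084 to 0.035, PREP from -0.31 to 0.014, RAB27A from -0.14 to 0.0065, CHGB from -0.0062 to 0.059, INSIG2 from -0.017 to 0.17, BLM from -0.048 to 0.0073 and CPE from -0.15 to 0.034. Each array sets 1 OXA RNA against 1 control RNA, so the fitted ratios are already paired by array. With a single group of ratios no further pairing could be added.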

Other observations

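Some peptide precursors moved with background handling. NMB was -1.01 when local background was subtracted and -1.06 in Agilent's log ratio. NPPC, the precursor of C-type natriuretic peptide, was 0.42 (SE 0.26) as reported, 1.03 after subtraction and 1.505 in Agilent's log ratio. PDYN was -0.24, -0.66 and -0.98 in the same 3 settings, and PTHLH was -0.51, -0.80 and -0.90. GAST, the gastrin precursor, was -0.25 (SE 0.17), -0.49 and -0.75. HCRT, another dim precursor, was 0.013, 0.0088 and -0.014. NPPC, PDYN, PTHLH and GAST are singled out after their values were seen: each met the looser rule in both of the other settings and none met it as reported. Dim and bright precursors were not compared by a test.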
